A study of Mus musculus with 13 samples.

Results

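The 8 Kruppel-like factor genes Klf2, Klf4, Klf5, Klf6, Klf9, Klf10, Klf13 and Klf15 were described in mouse endometrium, out of 30142 genes that the array could name. A member was taken as the array feature whose only gene symbol is that gene, and where a symbol had several features the one with the highest mean over all mice would have been used. Each symbol had exactly 1 feature, so mean expression decided nothing. The 8 genes were, however, chosen by name with earlier results of these data in view, among them the log2 values behind a lower Klf10 in HD than in CON mice, so that difference is given as a description only.

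Kruppel-like factors are transcription factors with zinc fingers at their carboxyl end that bind GC boxes and CACCC elements, where they compete or cooperate with one another and with Sp proteins. Some mainly recruit coactivators, others carry corepressors such as Sin3a to the DNA, and several are induced within minutes by growth factors, hormones or shear stress. In the uterus, Klf9 is known as a partner of the progesterone receptor, Klf5 as a gene the epithelium needs for implantation, and Klf15 as a brake on epithelial DNA replication under estradiol with progesterone.

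All 13 mice were female C57BL/6 animals whose ovaries had been removed at 6-8 weeks of age, and each was then kept for 12 weeks in 1 of 4 treatments. MIX mice (n = 3) received a subcutaneous pellet releasing 17-β estradiol together with a high-fat diet, E2 mice (n = 4) the pellet on chow, HD mice (n = 3) the high-fat diet with no pellet, and CON mice (n = 3) chow with no pellet. Every group, CON included, thus lacked ovarian hormones, and the labels name no progesterone treatment. The endometrium was scraped from the opened uterus, and 250 ng of total RNA per mouse was hybridised to 1 Affymetrix array. The labels give neither the pellet dose nor the diet composition.

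All values below are RMA log2 expression and all differences are on that log2 scale, with the fold beside them where useful. Scraped tissue holds several cell types, and in such bulk samples fewer cells of a type cannot be told apart from less RNA per cell. Epithelial markers (10 of 10 measured) had mean scores of 10.07 to 10.75 over all mice, and stromal markers (9 of 10) of 7.67 to 9.44. On the first principal component, with 33.4% of the variance, MIX replicate 3 and E2 replicate 1 lay farthest out, and MIX replicate 2 stood apart on the second. The animal codes in the titles come in a numbered and a lettered style, and the labels do not say what these mean. All 3 MIX mice and 1 mouse in each other group are lettered, so the fitted differences are adjusted for code style.

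Promoters are shown first for the 4 members with the largest differences between mice with and without a pellet, averaged over diets, which were positive for Klf2, Klf6 and Klf9 and negative for Klf4. Mice with and without a pellet overlapped for each of these genes, and none of the differences passed an adjusted p under 0.05. Each sequence is the 250 bases before the gene's start in RefSeq (GRCm38.p6), on the gene's own strand, and the table used held 6 of the 8 members. Capitals mark matches, on either strand, to the GC box GGGCGG, the Klf box CACCC, the core TGACG of the cAMP response element and the core TGACC of the estrogen response element.
Klf2, chr8:72318812-72319061, plus strand: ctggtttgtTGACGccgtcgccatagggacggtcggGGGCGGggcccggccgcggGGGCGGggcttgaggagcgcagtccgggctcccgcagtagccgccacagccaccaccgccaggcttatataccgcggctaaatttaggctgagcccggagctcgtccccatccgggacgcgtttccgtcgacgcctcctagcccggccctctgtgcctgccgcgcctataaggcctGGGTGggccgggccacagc
Klf6, chr13:5861239-5861488, plus strand: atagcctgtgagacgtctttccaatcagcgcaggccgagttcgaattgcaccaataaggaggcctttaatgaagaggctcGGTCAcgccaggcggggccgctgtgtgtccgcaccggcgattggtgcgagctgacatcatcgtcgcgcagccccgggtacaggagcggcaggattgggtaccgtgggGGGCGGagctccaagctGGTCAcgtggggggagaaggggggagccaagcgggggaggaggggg
Klf9, chr19:23140976-23141225, plus strand: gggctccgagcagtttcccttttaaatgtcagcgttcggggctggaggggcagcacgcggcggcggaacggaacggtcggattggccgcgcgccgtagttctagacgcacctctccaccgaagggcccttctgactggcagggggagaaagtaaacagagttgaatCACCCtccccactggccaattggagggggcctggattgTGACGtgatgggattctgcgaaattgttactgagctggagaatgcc
Klf4, chr4:55532476-55532725, minus strand: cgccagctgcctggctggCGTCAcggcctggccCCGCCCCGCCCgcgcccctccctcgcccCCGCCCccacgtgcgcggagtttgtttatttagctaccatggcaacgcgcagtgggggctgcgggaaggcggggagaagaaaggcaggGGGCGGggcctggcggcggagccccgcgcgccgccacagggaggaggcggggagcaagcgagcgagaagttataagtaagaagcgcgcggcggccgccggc

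The Klf6 window held TGACC at 2 places, beginning at bases -170 and -46 from the gene's start, and 1 GC box. None of the other 5 windows, those of Klf2, Klf4, Klf9, Klf13 and Klf15, held TGACC, a motif found in 35.2% of all 32851 promoter windows of this length. The Klf15 window (chr6:90462326-90462575, plus strand) lay inside the gene's span in RefSeq, which begins at base 90461043, and not before it. The Klf2 window carried 2 GC boxes, 1 CACCC and 1 TGACG, and the Klf4 window 4 GC boxes, of which 2 overlap, with 1 TGACG. In Klf9 the window had 1 CACCC and 1 TGACG and no GC box. GGGCGG occurred in 32.7% of all windows, CACCC in 52.0% and TGACG in 17.8%. The windows of Klf2, Klf4, Klf6 and Klf9 had 71.2%, 74.0%, 64.8% and 59.6% G and C against a median of 52.4% over all windows.

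Across the 13 mice the members differed widely in how much they varied. Klf4 spanned a 3.89-fold range and Klf9 a 3.29-fold range, while Klf13 spanned 1.39-fold and Klf15 1.46-fold. Within groups the SD was 0.55 for Klf4 and 0.46 for Klf9, against a median of 0.19 for features brighter than the median feature, a set that holds all 8 members. Klf15 and Klf13 had an SD of 0.11 and 0.12 within groups. Differences between the 4 groups took up 57.8% of the variance of Klf6 and 52.5% of that of Klf2, where the median feature among the brighter ones had 28.3%. For Klf5 the share was 27.6%, close to that median. For Klf10 it was 74.4%, a description only, since it holds the HD and CON values known when the genes were chosen.

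**Figure D1:**
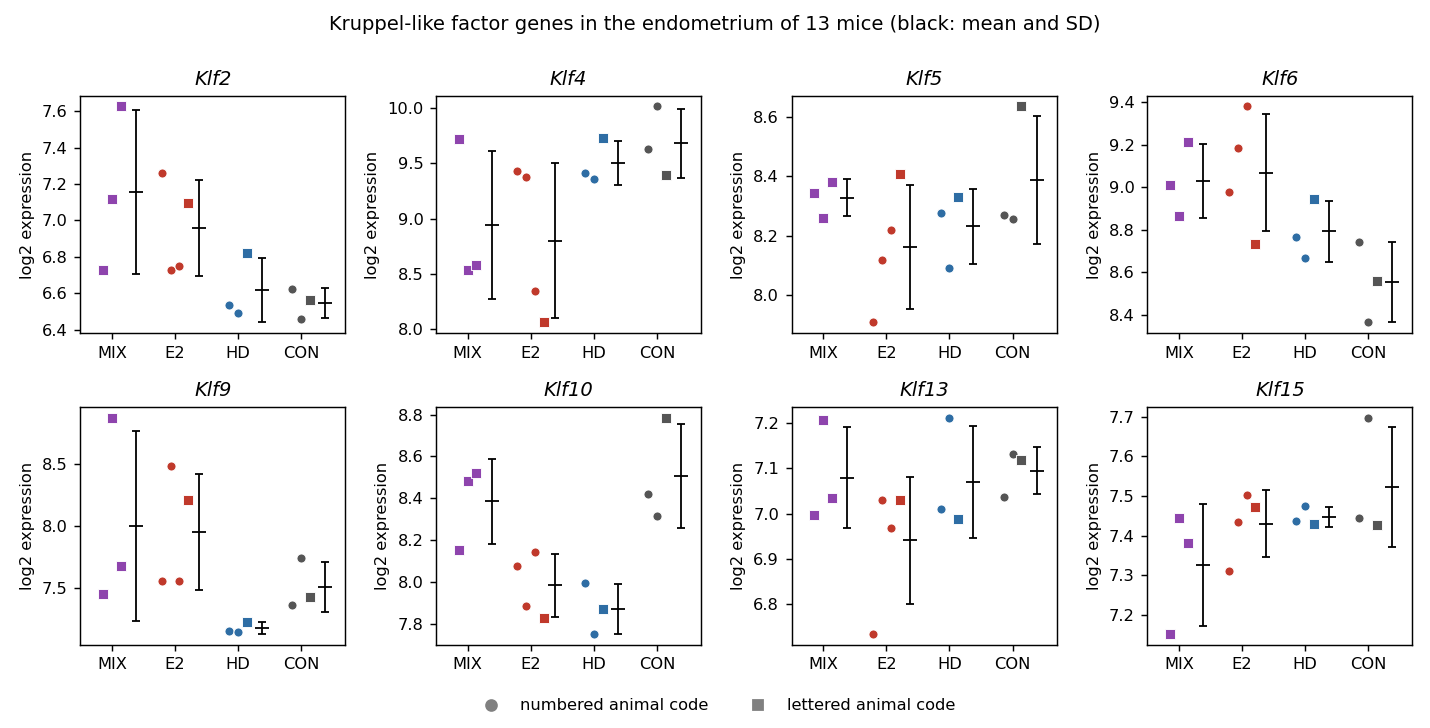
Log2 expression of each member in each mouse (circles, numbered codes; squares, lettered codes) by group, with the group mean and SD in black, each panel on its own scale. The 3 HD mice and 4 E2 mice lie below the 3 MIX and 3 CON mice for Klf10, and the 3 HD mice lie below all others for Klf9. How many features share the Klf9 arrangement was not counted.

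Klf10, first described as a gene that transforming growth factor beta and estradiol induce early, encodes a repressor that carries Sin3a to its targets. Its log2 expression was 8.15, 8.48 and 8.52 in MIX mice, 8.08, 7.88, 8.14 and 7.83 in E2 mice, 7.99, 7.75 and 7.87 in HD mice, and 8.42, 8.31 and 8.79 in CON mice. All mice with either treatment alone were thus below all mice with both or neither, although the nearest MIX and E2 mice, at 8.15 and 8.14, were almost level. In order of their means the groups ran from CON (8.51 ± 0.25, SD) over MIX (8.38 ± 0.20) and E2 (7.98 ± 0.15) to HD (7.87 ± 0.12), with overlap between MIX and CON and between E2 and HD.

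The pellet difference of Klf10 on chow (E2 with CON) was -0.52 (SE 0.14), which is 0.70-fold. On the high-fat diet (MIX with HD) it was 0.47 (SE 0.17), which is 1.39-fold. Their difference, the interaction of pellet and diet, was 0.99 (SE 0.22). It holds the HD and CON values that were known when the genes were chosen, so it too is a description and no p is given for it, and the pellet differences share those mice. Without a pellet, the diet difference of Klf10 (HD with CON) was -0.63 (SE 0.15), or 0.64-fold, and under the pellet (MIX with E2) it was 0.36 (SE 0.17), or 0.14 without E2 replicate 4. E2 with CON and HD with CON share the same 3 CON mice, of which CON replicate 3 was the highest mouse of all at 8.79. Without that mouse the E2 difference was -0.36 and the HD difference -0.46, and the interaction was between 0.77 and 1.12 whichever mouse was left out.

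The arrangement of Klf10, with E2 and HD both below MIX and CON and no overlap, was counted over all features after it had been seen. It includes HD below CON, the Klf10 difference known when the genes were chosen, so the counts are a description only. The arrangement was found in 10 features, or 0.0152%, and the opposite one in 21, or 0.0319%. Besides Klf10, those with 1 symbol were Gm14977, Gm5454, Hcfc1r1, Krt80, Sgta, Sos2 and Sun2. Krt80, an epithelial keratin gene, averaged 7.59 in MIX, 7.00 in E2 and 6.92 in HD mice, against 7.67 in CON mice.

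**Figure D2:**
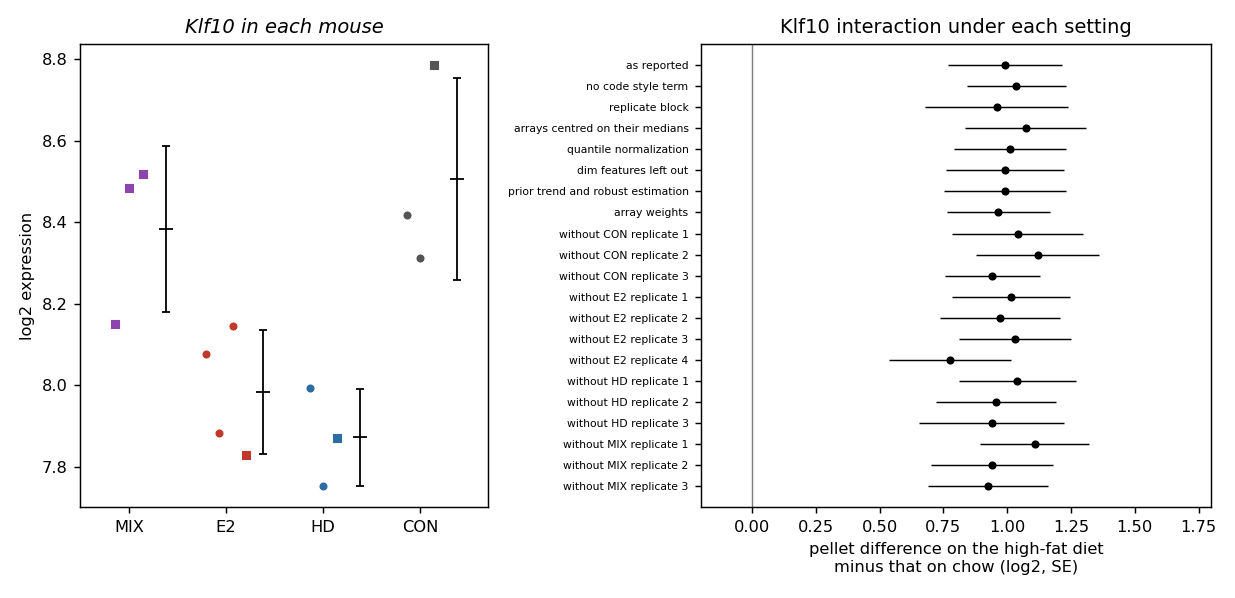
Left, log2 expression of Klf10 in each mouse by group with the mean and SD. Right, the Klf10 interaction (MIX minus HD, less E2 minus CON, log2, with SE) as reported, under 7 other settings and without each mouse in turn. Every point lies between 0.77 and 1.12.

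Klf6, an early-response gene of injury and growth factor signalling that also shapes inflammatory gene expression in macrophages, had higher means in the pellet groups. Its values were 9.01, 8.87 and 9.21 in MIX mice, 8.98, 9.18, 9.38 and 8.74 in E2 mice, 8.77, 8.67 and 8.95 in HD mice, and 8.74, 8.37 and 8.56 in CON mice. All 7 pellet mice were above the median of the 6 mice without a pellet, and 5 were above all of them. These counts were not made over all features, so how common they are is not known. All 3 MIX mice were above all 3 CON mice. Averaged over both diets, the pellet difference of Klf6 was 0.40 (SE 0.12), or 1.32-fold, with an unadjusted p of 0.00769 and an adjusted p of 0.353 in limma. On chow it was 0.51 (SE 0.16) and on the high-fat diet 0.29 (SE 0.19), and the interaction of -0.21 (SE 0.25) was smaller than its error. The difference on the high-fat diet was 0.16 without E2 replicate 4 and 0.55 without HD replicate 3. The difference of MIX with CON was 0.53 (SE 0.19, adjusted p = 0.483).

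Klf2 keeps lymphocytes and endothelium quiescent and is induced by blood flow. It stood at 6.73, 7.12 and 7.63 in MIX mice, at 7.26, 6.73, 6.75 and 7.09 in E2 mice, at 6.54, 6.49 and 6.82 in HD mice, and at 6.62, 6.46 and 6.56 in CON mice. Every MIX mouse and every E2 mouse exceeded every CON mouse, but HD replicate 3 at 6.82 lay within the range of the pellet mice. The pellet difference averaged over diets was 0.43 (SE 0.15), or 1.34-fold, with an unadjusted p of 0.0182 and an adjusted p of 0.415 in limma. It was nearly equal on both diets, with an interaction of 0.00 whose 95% interval ran from -0.70 to 0.70. MIX replicate 3 was the highest mouse, and without it the averaged difference was 0.31.

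Markers of macrophages moved with both genes, with the pellet and, in mice without a pellet, with the diet. Of 11 such markers, 10 were above 0 for the averaged pellet difference (median 0.85), with 0 past the threshold. For HD with CON, 10 were also above 0 (median 0.54), with 0 past the threshold. Their mean score over 11 of 11 markers ranged from 7.07 to 8.35 in MIX and from 7.28 to 7.92 in E2 mice, against 6.98 to 7.31 in HD and 6.35 to 6.84 in CON mice. Only Cd163 among them averaged below the median feature. Over the 13 mice Klf2 correlated with this score with Pearson's r of 0.79 (permutation p = 0.00096, adjusted p = 0.016) and Spearman's rho of 0.75 (permutation p = 0.00493, adjusted p = 0.078). The r was 0.62 without the 2 mice farthest from the median score, 0.71 among the 7 pellet mice and 0.28 among the 6 others. It was 0.57 in numbered and 0.97 in lettered mice, and 0.62 for deviations from the group means. For Klf6 the r was 0.75 (permutation p = 0.00359, adjusted p = 0.039) and rho 0.69 (permutation p = 0.0122, adjusted p = 0.098), with an r of 0.28 among pellet mice and 0.76 among the others. It was 0.59 without the 2 farthest mice, 0.91 in numbered mice and 0.67 in lettered mice, but 0.35 for deviations from the group means. These relations belong to 88, of 8 members with 11 marker lists, of which 9 had an adjusted Pearson p under 0.05 and 0 an adjusted Spearman p under 0.05.

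Klf2 also followed the lymphocyte score (10 of 11 markers, Ms4a1 and Klrb1c below the median feature), with r of 0.86 (permutation p = 0.00028, adjusted p = 0.00726) and rho of 0.75 (permutation p = 0.00445, adjusted p = 0.078). That score spanned 5.08 to 5.52 in MIX and 5.06 to 5.42 in E2 mice, against 4.88 to 4.94 in HD and 4.83 to 5.07 in CON mice. The r was 0.78 without the 2 farthest mice, 0.95 in numbered and 0.84 in lettered mice, 0.82 among the 7 pellet mice and 0.07 among the 6 others. With the mesothelial score (6 of 6 markers) it was 0.84 (permutation p = 0.00011, adjusted p = 0.00484), rho was 0.74 (permutation p = 0.00509, adjusted p = 0.078), and r was 0.80 without the 2 farthest mice, 0.89 in numbered and 0.83 in lettered mice, 0.77 with and 0.31 without a pellet. Granulocyte scores separated mice with and without a pellet, at 6.01 to 8.68 in MIX and 6.02 to 7.79 in E2, against 5.46 to 5.82 in HD and 4.87 to 5.34 in CON. Within the pellet mice Klf2 had an r of 0.86 with that score, and within the others 0.59. Squamous scores also separated mice with and without a pellet, with a Klf2 r of 0.52 within the pellet mice and 0.17 within the others. With the endothelial score (9 of 10 markers) Klf2 had an r of 0.42 (permutation p = 0.141, adjusted p = 0.367). It was 0.32 with and 0.08 without a pellet. For deviations from the group means the r was 0.73 (lymphocyte), 0.67 (mesothelial), 0.84 (granulocyte), 0.44 (squamous) and 0.24 (endothelial score). The part of these cell types in the Klf2 and Klf6 differences was not tested.

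Klf9, the partner of the progesterone receptor that glucocorticoid and thyroid hormone also induce, was lowest in HD mice. It measured 7.45, 8.87 and 7.68 in MIX mice, 7.56, 8.48, 7.56 and 8.21 in E2 mice, 7.16, 7.15 and 7.23 in HD mice, and 7.36, 7.74 and 7.43 in CON mice. The 3 HD mice lay close together and below all 10 others, while MIX replicate 2 and E2 replicates 2 and 4 stood high. HD was below CON without overlap in 2.96% of features, and the share with HD below all 10 others was not counted. MIX and HD means were 8.00 ± 0.76 and 7.18 ± 0.05 (SD, n = 3 each), which differed by 0.75 after adjustment for code style (SE 0.41, adjusted p = 0.726, limma). Without MIX replicate 2 it was 0.31. HD with CON differed by -0.33 (SE 0.35), an SE that rests mostly on the spread of the pellet groups, and by -0.19 without CON replicate 2. Averaged over diets the pellet difference was 0.60 (SE 0.26), or 1.51-fold, with an adjusted p of 0.482 in limma, and 0.38 without MIX replicate 2. All 7 pellet mice were above the median of the mice without a pellet, a count not made over all features.

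Endothelial and stromal markers moved with Klf9. The endothelial score (9 of 10 markers, none below the median feature) ranged from 5.31 to 7.65 in MIX and 5.54 to 6.23 in E2 mice, against 5.55 to 5.81 in HD and 5.83 to 5.98 in CON mice, and its highest mouse was MIX replicate 2, which also had the highest Klf9. Klf9 had an r of 0.84 with it (permutation p = 0.00033, adjusted p = 0.00726) and a rho of 0.70 (permutation p = 0.00906, adjusted p = 0.098). The r was 0.76 without the 2 farthest mice, 0.83 in numbered and 0.91 in lettered mice, 0.88 with and 0.88 without a pellet, and 0.91 for deviations from the group means. With the stromal score the r was 0.78 (permutation p = 0.00127, adjusted p = 0.016) and the rho 0.68 (permutation p = 0.0118, adjusted p = 0.098), and r was 0.51 without the 2 farthest mice, 0.57 in numbered and 0.88 in lettered mice, 0.78 with and 0.40 without a pellet. For deviations from the group means it was 0.74. Stromal scores spanned 7.90 to 9.44 in MIX and 7.74 to 9.14 in E2 mice, against 8.03 to 8.18 in HD and 7.67 to 8.53 in CON mice. The part of these cells in the Klf9 values was not tested.

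**Figure D3:**
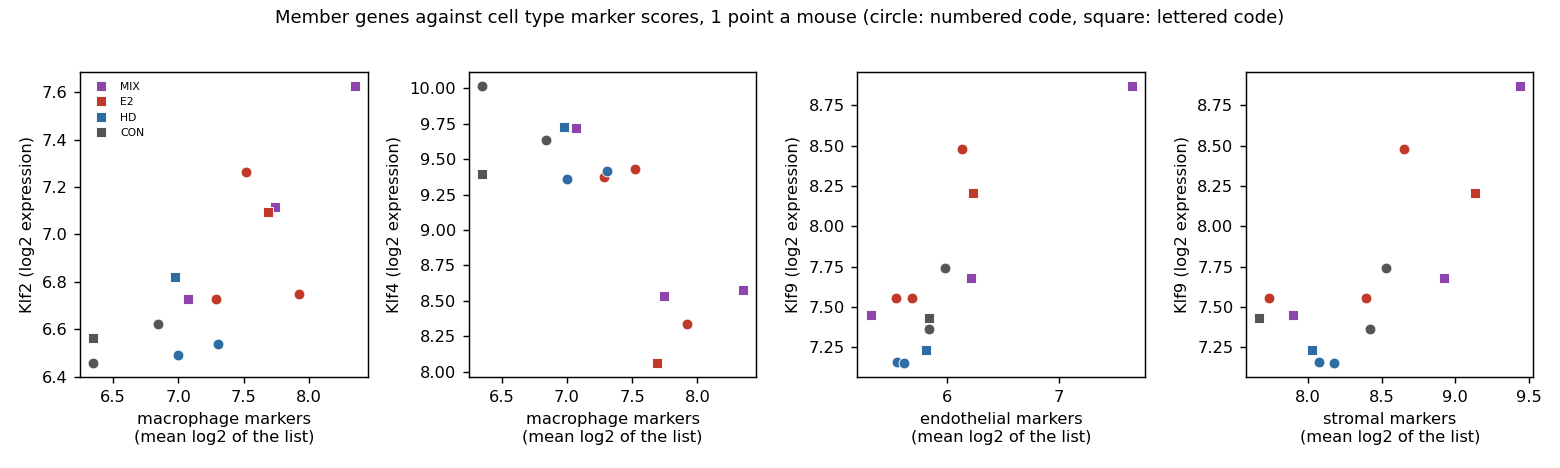
Members (y axis, log2 expression) against the mean log2 value of a marker list (x axis) in each of the 13 mice, for Klf2 and Klf4 with macrophage markers and Klf9 with endothelial and stromal markers. Klf2 and Klf9 are high where the score is high (r of 0.79, 0.84 and 0.78), and Klf4 is low where the macrophage score is high (r of -0.78).

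Klf13, a close relative of Klf9 in the same steroid-linked subgroup, hardly varied, at 7.00, 7.21 and 7.03 in MIX mice, 6.73, 7.03, 6.97 and 7.03 in E2 mice, 7.01, 7.21 and 6.99 in HD mice, and 7.04, 7.13 and 7.12 in CON mice. All E2 mice lay below all CON mice, the nearest pair at 7.03 and 7.04, and the difference was -0.15 (SE 0.09), or -0.09 without E2 replicate 1. Klf15, which drives amino acid catabolism in muscle and liver, stood at 7.15, 7.44 and 7.38 in MIX mice, 7.31, 7.44, 7.50 and 7.47 in E2 mice, 7.44, 7.47 and 7.43 in HD mice, and 7.44, 7.70 and 7.43 in CON mice. Its groups overlapped in all comparisons. The averaged pellet difference was -0.10 with a 95% interval of -0.26 to 0.06 for Klf15 and -0.08 with an interval of -0.24 to 0.09 for Klf13.

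Klf4, which arrests epithelial cells in the cycle and drives their terminal differentiation, was the most variable member. It read 9.72, 8.53 and 8.58 in MIX mice, 9.43, 9.38, 8.34 and 8.06 in E2 mice, 9.41, 9.36 and 9.73 in HD mice, and 9.64, 10.02 and 9.39 in CON mice. Of the pellet mice, 4 were below all 6 mice without a pellet, whereas MIX replicate 1 and E2 replicates 1 and 2 lay among them. The share of features with such a count was not computed. The difference of E2 with CON was -0.91 (SE 0.37), or 0.53-fold, with an unadjusted p of 0.0331 and an adjusted p of 1 in limma. MIX with CON gave -0.48 (SE 0.45), but -0.74 without the code style term, 0.044 with array weights, -0.87 without MIX replicate 1 and -0.25 without HD replicate 3. Averaged over diets it was -0.61 (SE 0.29, adjusted p = 0.521 in limma), but -0.24 with array weights and -0.33 without HD replicate 3.

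Over the 13 mice Klf4 ran against the macrophage score given above, with r of -0.78 (permutation p = 0.00119, adjusted p = 0.016) and rho of -0.74 (permutation p = 0.00478, adjusted p = 0.078). The r was -0.73 without the 2 farthest mice, -0.88 in numbered and -0.72 in lettered mice, -0.72 among pellet mice and -0.43 among the others. For deviations from the group means it was -0.68. With the epithelial score it had an r of 0.60 and a rho of 0.69 (permutation p = 0.0297 and 0.0107, adjusted p = 0.218 and 0.098), and the r was 0.51 without the 2 farthest mice, 0.59 with and 0.59 without a pellet. Epithelial scores spanned 10.07 to 10.75 in MIX and 10.29 to 10.42 in E2 mice, against 10.40 to 10.71 in HD and 10.32 to 10.52 in CON mice. The part of either cell type in the Klf4 values was not tested.

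Klf5, the growth-promoting counterpart of Klf4 in epithelia, differed little, at 8.34, 8.26 and 8.38 in MIX mice, 7.91, 8.12, 8.22 and 8.41 in E2 mice, 8.28, 8.09 and 8.33 in HD mice, and 8.27, 8.25 and 8.64 in CON mice. In E2, HD and CON alike the highest mouse was the lettered one. Its code style term was 0.28 (lettered minus numbered, unadjusted p = 0.00469, adjusted p = 0.858 in limma), the lowest p of any member for that term. The difference of MIX with CON was -0.25 (SE 0.11) with this term and -0.06 without it, so it turned mainly on the adjustment. E2 with CON differed by -0.20 (SE 0.09), and by -0.18 (SE 0.11) among numbered mice alone.

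The members were then set against all features in each comparison. For estradiol on chow (E2 with CON), 0 of 8 members and 0% of features passed an adjusted p under 0.05 in limma. Klf10 is not counted further here, since its CON values were known when the genes were chosen. Klf6 was higher and Klf4 and Klf5 lower at an unadjusted p under 0.05, where 1.93% and 2.09% of features were. Klf2 was higher without overlap, as were 3.01% of features, and Klf13 lower, as were 2.6%. For the high-fat diet without a pellet (HD with CON), 0 of 8 members and 0% of features passed. Beside Klf10, whose difference here was known when the genes were chosen and is not counted, 0 members were lower at an unadjusted p under 0.05, as 0.916% of features were, and Klf9 was lower without overlap, as were 2.96%.

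For both treatments against neither (MIX with CON), 0 of 8 members passed against 0.00303% of features, and Klf6 was higher and Klf5 lower at an unadjusted p under 0.05, as were 3.7% and 4.64% of features. Klf2 and Klf6 were higher without overlap, as were 5.52%. For estradiol on the high-fat diet (MIX with HD), 0 of 8 passed against 0.00455% of features. Beside Klf10, not counted since its HD values were known when the genes were chosen, 0 members were higher at an unadjusted p under 0.05 (2.41% of features). Klf9 was higher without overlap, as were 3.47%. For the diet under the pellet (MIX with E2), 0 of 8 members and 0% of features passed, 0 members reached an unadjusted p under 0.05, as 2.78% of features did, and Klf10 was higher without overlap, as were 1.5%.

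With the pellet averaged over diets, 0 of 8 passed against 0.0167% of features, and Klf2, Klf6 and Klf9 were higher at an unadjusted p under 0.05, as were 3.73% of features. With the diet averaged over pellet states, 0 of 8 members and 0% of features passed, 0 members had an unadjusted p under 0.05 against 3.36% of features, and member differences lay between -0.18 and 0.13. In the interaction 0 of 8 members and 0% of features passed, and beside Klf10, not counted here either, 0 members had an unadjusted p under 0.05, as 2.1% of features did. Those interactions ran from -0.21 for Klf6 to 0.61 (SE 0.60) for Klf4, which was 0.12 without E2 replicate 4 and 1.23 without HD replicate 3.

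Which members had an unadjusted p under 0.05, here written as called, depended on the code style term. Without it, Klf5 was no longer called in E2 with CON (unadjusted p = 0.101 in limma) or in MIX with CON (0.670), and Klf2 was called in MIX with CON (0.0133). Klf10 was then called in MIX with E2 (0.0114), Klf2 and Klf9 in MIX with HD (0.0244 and 0.0334) and Klf4 in the averaged pellet difference (0.0234). Of all features, the unadjusted p without the term was under 0.05 in either direction for 4% in E2 with CON, 11.7% in MIX with CON, 7.04% in MIX with E2, 12.7% in MIX with HD and 12% in the averaged pellet difference.

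**Figure D4:**
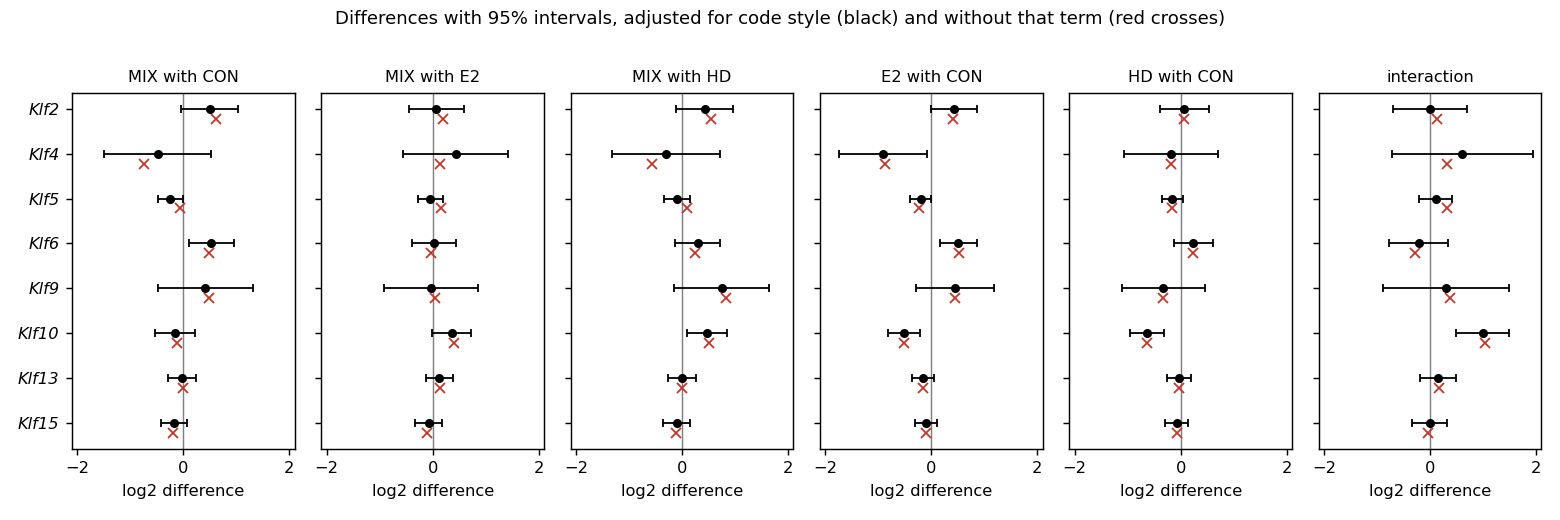
Log2 differences of the 8 members (rows) in 5 comparisons and the interaction (panels), with 95% intervals from limma after adjustment for code style (black) and as point values without that term (red crosses). Klf10 has negative differences in E2 and HD with CON and an interaction of 0.99, and the Klf5 difference of MIX with CON moves from -0.25 to -0.06 without the term. Klf10 intervals that use HD or CON mice are not tests, since those values were known when the genes were chosen.

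Members did not form a block that rose and fell together over the mice. Pearson's r over the 28 pairs ran from -0.57 (Klf2 with Klf4) to 0.52 (Klf5 with Klf10), and 13 pairs were positive. For Klf2 with Klf4 the permutation p was 0.0383 (adjusted p = 0.507), rho was -0.42 (permutation p = 0.15, adjusted p = 0.638), and r was -0.72 without the 2 mice farthest from the median Klf2. Klf2 and Klf6, both with a positive averaged pellet difference, had an r of 0.50 (permutation p = 0.082, adjusted p = 0.507) and a rho of 0.63 (permutation p = 0.0244, adjusted p = 0.341), an r of 0.37 without the 2 farthest mice, and 0.03 for deviations from the group means. No pair had an adjusted p under 0.05, and 1 had an unadjusted Pearson p under 0.05.

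**Figure D5:**
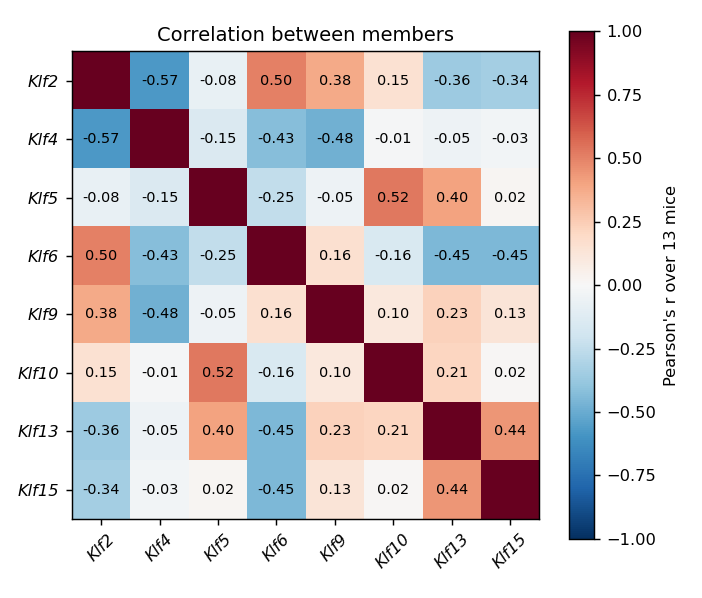
Pearson's r between the log2 values of each pair of members over the 13 mice, from blue (negative) to red (positive). The r of Klf4 is below 0 with all other members, from -0.01 with Klf10 to -0.57 with Klf2, and no pair had an adjusted p under 0.05.

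For each member the 3 genes with the most similar log2 values over the 13 mice were named among 14850 genes with 1 symbol and a mean above the median feature, with predicted genes left out. Klf2 was followed most closely by Adgrd1 (r = 0.96), Rac2 (r = 0.95) and Apbb1ip (r = 0.95). Klf6 was followed by Bach1, a heme-binding repressor gene (r = 0.92), the chemokine gene Cxcl16 (r = 0.91) and Grpel2 (r = 0.90). Klf9 had Gpc6, Pamr1 and Aff2 (r = 0.96, 0.94 and 0.94), and Klf4 had Mllt11, the growth factor receptor inhibitor Lrig1 and the epithelial Rab gene Rab25 (r = 0.91, 0.89 and 0.89). Klf10 had no gene as close, with Trim47 at 0.86, Susd2 at 0.78 and Rabl2 at 0.77. Susd2 averaged 7.66 in MIX, 6.99 in E2 and 7.29 in HD mice, against 8.46 in CON mice. Klf5 was matched by Cldnd1, Psme3ip1 and Ergic1 (r = 0.91, 0.90 and 0.90), Klf13 by Zfp316, Lmbr1l and Pkd1 (r = 0.90, 0.84 and 0.84), and Klf15 by Tmem150c, Trp53i13 and Hic2 (r = 0.97, 0.94 and 0.93). These values were the highest of many and carry no test.

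Genes that act with or through the members were followed in lists. Of 17 measured other Klf and Sp genes out of 18, 0 passed in any of the 8 comparisons. With the pellet averaged over diets their median difference was -0.03, the same as the median of all features, with 2 higher and 1 lower at an unadjusted p under 0.05, as were 3.73% and 6.25% of all features. Klf3, a repressor that recruits Ctbp2, had -0.35 (SE 0.11) and Klf7 0.38 (SE 0.15). Of 12 measured corepressor and coactivator genes out of 14, 0 passed, and Ep300, the acetyltransferase that Klf proteins recruit, averaged 8.85 in MIX, 8.78 in E2 and 8.84 in HD mice, against 9.25 in CON mice. Its difference of MIX with CON was -0.59 (SE 0.15, adjusted p = 0.345 in limma).

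Among 20 measured inducers of Klf genes out of 21, 0 passed, with 10 above and 10 below 0 for the averaged pellet difference. Those with the lowest p were the ligand gene Tgfb3 (0.66, SE 0.15, adjusted p = 0.242 in limma) and the receptor gene Tgfbr2 (0.62, SE 0.16, adjusted p = 0.286). The list was built with several genes of transforming growth factor beta signalling. Klf10 itself had an averaged pellet difference of -0.02 (SE 0.11), and its relation to these genes was not tested. Tgfb1, itself a known Klf10 target, averaged 7.28 in MIX and 7.02 in E2 mice, against 6.53 in HD and 6.47 in CON mice, with a pellet difference of 0.69 (SE 0.18, adjusted p = 0.294). Smad7, the other Klf10 target named by the same rule, had -0.21 (SE 0.09). Neither showed the Klf10 order of groups. In the interaction 0 of the 4 measured Klf10 targets out of 5 had an unadjusted p under 0.05, as 2.1% of all features did.

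Of the 10 measured Klf4 and Klf5 targets out of 12, 1 passed for the averaged pellet difference, as did 0.0167% of all features. It was the stratified epithelial keratin gene Krt13, with a pellet difference of 2.54 (SE 0.28, adjusted p = 0.0296 in limma). It averaged 10.10 in MIX and 8.55 in E2 mice, against 6.68 in HD and 6.93 in CON mice. The list's median pellet difference was 0.16, with 7 above and 3 below 0. Squamous markers, Krt13 among them, moved the same way, with scores (7 of 8) of 7.21 to 8.80 in MIX and 6.34 to 7.48 in E2 mice, against 5.83 to 5.90 in HD and 5.73 to 6.10 in CON mice, and their part in Krt13 was not tested. For Klf2, 0 of 6 measured targets out of 7 passed, and Vcam1, an adhesion molecule of activated endothelium that Klf2 restrains, had a pellet difference of 1.17 (SE 0.43, adjusted p = 0.430). Klf2 differed in the same direction, by 0.43 (SE 0.15), and a relation between these genes was not tested. For Klf15, 0 of 7 targets passed.

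Glucocorticoid targets, a list chosen because the same hormone induces Klf9 and Klf15, had 0 of 12 members past the threshold, a median pellet difference of 0.09 against -0.03 for all features, and 4 members higher at an unadjusted p under 0.05, as were 3.73% of all features. Dusp1, a phosphatase gene that is also an early-response gene, had 1.59 (SE 0.41, adjusted p = 0.294) and Sgk1 0.38 (SE 0.13, adjusted p = 0.405). Of the 21 measured immediate-early genes out of 22, 16 were above and 5 below 0 for the averaged pellet difference, with a median of 0.38 against -0.03 for all features and 0 past the threshold. Of all features, 38.9% were above 0. At an unadjusted p under 0.05 in limma, 6 of these genes were higher and 2 lower, as were 3.73% and 6.25% of all features. Nr4a2, among the 5 below 0, was the gene of the list with the lowest p, at -0.45 (SE 0.10, adjusted p = 0.227).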

How the data were processed

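The deposited table holds log2 expression per array feature, and the authors used RMA to compute it, per the submitters' processing notes. Neither the version, filters nor the genome build is named in a label. RMA treats all arrays together and compresses differences of dim features. Values of 65929 features ran from 1.66 to 13.8 over 13 arrays, 1 per mouse, with array medians of 4.48 to 4.71. Precision is limited by the number of mice, since arrays have no read depth. Features were named from the array annotation (30604 with 1 symbol, 2146 with several, 33179 unnamed here; 827 symbols updated).

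From these values, all features and mice entered 1 fit of lmFit and eBayes (limma 3.58.1, R 4.3.3) with 4 group coefficients and code style, with 8 residual degrees of freedom. Tests are two-sided, with Benjamini-Hochberg adjustment over all features and a threshold of 0.05. The fit was tested on simulated data. Marker scores are means of log2 values. Correlations used 100000 permutations, adjusted over 28 pairs or 88 relations.

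The members and lists were chosen with earlier results of these data known. Named genes are the members, the 2 genes of lowest p per list and comparison (Tgfb1 is one of the Klf10 targets so named), and the 3 most similar genes per member. Nothing says whether mice shared cages or litters. Alternatives were no code style term, a replicate block, centring, quantile normalization, dim features left out, another prior, array weights, numbered mice only, and each mouse left out. Averaging several features of a gene could not be run, since each member has 1.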

Additional observations from a re-analysis of the deposited data

Results flagged for a closer look

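The pellet difference of Klf10 on the high-fat diet (MIX with HD, 0.47) differed from that on chow (E2 with CON, -0.52) by 0.9908 on the log2 scale (SE 0.22). The HD and CON values in it were known when the genes were chosen, so the difference is a description and was not tested. All 4 E2 mice were below all 3 CON mice, and all 3 MIX mice were above all 3 HD mice. The smooth muscle score ran from 6.36 to 7.22 in MIX and 6.40 to 6.81 in E2 mice, against 6.49 to 6.97 in HD and 6.36 to 7.30 in CON mice, and its part in the result was not tested. In the E2 group of 4 mice, the only one large enough to look for a mouse far from the others, none of the 8 members had such a mouse.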

How the results depend on the processing

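Of 464 differences of members under other settings, 424 kept their sign and 40 did not, and no member passed the threshold in any of them. The Klf10 interaction ran from 0.96 to 1.07 under the other settings and from 0.77 to 1.12 without single mice. The cause of the sign changes below was not tested.

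With array weights, values were -0.026 for Klf2 and 0.079 for Klf13 in HD with CON, 0.044 for Klf4 in MIX with CON, -0.077 for Klf2 in MIX with E2, 0.36 for Klf4 in MIX with HD and -0.052 for Klf2 in the averaged diet difference. In the interaction they were -0.052 for Klf2, 0.048 for Klf6, -0.065 for Klf9 and -0.021 for Klf13. With arrays centred, they were 0.045 for Klf13 in MIX with CON, 0.0012 for Klf5 and 0.016 for Klf9 in MIX with E2, 0.0084 for Klf5, 0.10 for Klf13 and 0.0042 for Klf15 in MIX with HD, 0.078 for Klf15 in the interaction and 0.039 for Klf10 in the averaged pellet difference. With no code style term, they were 0.16 for Klf5, -0.038 for Klf6 and 0.050 for Klf9 in MIX with E2, 0.096 for Klf5 and 0.0093 for Klf13 in MIX with HD, and -0.019 for Klf4 and 0.0053 for Klf5 in the averaged diet difference. Numbered mice alone gave -0.024 for Klf2 and 0.028 for Klf13 in HD with CON, and quantile normalization gave 0.00068 for Klf15 in the interaction.

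Deviations of same-numbered mice from their group means correlated at -0.26 to 0.31 over 18 pairs, of which 5 exceeded 0.1. Over 45 other pairs they correlated at -0.41 to 0.49, and 14 exceeded 0.1. Deviations cancel out within groups of 3 or 4 mice, so these values cannot decide whether replicate numbers pair the mice. With the replicate block, values were 0.020 for Klf13 in MIX with CON, -0.87 for Klf4, 0.13 for Klf5 and 0.10 for Klf15 in MIX with E2, 0.019 for Klf5, 0.045 for Klf13 and 0.0066 for Klf15 in MIX with HD, -0.52 for Klf4 and 0.012 for Klf15 in the averaged diet difference, -0.69 for Klf4 and 0.18 for Klf15 in the interaction, and 0.017 for Klf10 in the averaged pellet difference. The block left 0 features past the threshold in MIX with CON, in MIX with HD and in the averaged pellet difference.

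The count of features past the threshold in MIX with CON was 2, and it was 15 with no code style term, 5 with arrays centred, 1 with quantile normalization, 11 with dim features left out and 21 with array weights (0 to 89 without single mice). In MIX with HD it was 3, and 12 with no code style term, 5 with quantile normalization, 6 with dim features left out and 10 with array weights (0 to 80). In the averaged pellet difference it was 11, and 7 with another prior and 30 with array weights (0 to 224). In MIX with E2 it was 0, and 1 with no code style term (0 to 24). It was 0 to 3 for the averaged diet difference and 0 to 2 for the interaction without single mice.

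Leaving out 1 mouse turned 52 of 832 differences. In HD with CON the range was -0.0022 to 0.14 for Klf2, -0.10 to 0.043 for Klf13 and -0.13 to 0.013 for Klf15. In MIX with CON it was -0.019 to 0.69 for Klf9, -0.26 to 0.13 for Klf10 and -0.089 to 0.016 for Klf13. In MIX with E2 it was -0.16 to 0.29 for Klf2, -0.059 to 0.69 for Klf4, -0.27 to 0.14 for Klf6, -0.47 to 0.24 for Klf9 and -0.14 to 0.0083 for Klf15. In MIX with HD it was -0.69 to 0.28 for Klf4 and -0.11 to 0.054 for Klf13. For the averaged pellet difference it was -0.062 to 0.12 for Klf10. For the averaged diet difference it was -0.047 to 0.18 for Klf2, -0.12 to 0.23 for Klf4, -0.016 to 0.19 for Klf6, -0.25 to 0.014 for Klf10 and -0.0028 to 0.094 for Klf13. For the interaction it was -0.23 to 0.22 for Klf2, -0.011 to 0.15 for Klf5, -0.51 to 0.052 for Klf6, -0.14 to 0.57 for Klf9 and -0.12 to 0.084 for Klf15.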
